A study of Mus musculus with 8 samples.

Results

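Integrin and laminin genes were examined across 4 mouse mammary tumour cell lines by RNA-seq. The set holds 36 of the 27179 genes in the count matrix. It comprises 18 integrin α chains, 8 integrin β chains and 10 laminin chains (5 α, 3 β and 2 γ), and its members were chosen by name, as the rows whose Entrez identifier belongs to a listed symbol. Each of the lines 4T1.2, 4T1, 66cl4 and 67NR was sequenced as 2 biological replicates, which gave 8 bulk libraries of total RNA. 4T1 and 4T1.2 are the more metastatic lines of this family, and 66cl4 and 67NR spread less, and 4T1.2 derives from BALB/c mice and spreads from the mammary fat pad to bone. The labels give no growth or treatment step, no age and no engineered allele, and the lines were kept in α Minimal Essential Medium with serum. Every group is 1 cell line, so a contrast of 4T1 and 4T1.2 with 66cl4 and 67NR rests on 2 lines a side. The paper describes the 4 lines as isogenic, so the lines of a side are not of independent origin. The sources do not say how the biological replicates were separated, and the p-values therefore measure only the spread between these samples.

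Library totals ran from 37159840 to 66269681 counts, and the 36 genes took between 0.285% and 0.464% of a library. On log2 counts scaled for depth, replicates of a line correlated at 0.995 to 0.996 across genes, and libraries of different lines at 0.779 to 0.985. Replicates differed by more than sampling noise, so none was treated as a library deposited again, which does not show that they came from separate cultures. The labelled origin was checked against marker genes. Krt8, a keratin of simple epithelia, was abundant in all libraries, at 257 to 888 RPKM (counts scaled for library depth and gene length). Krt18 was at 80.8 to 858 RPKM in 4T1.2, 4T1 and 66cl4 and at 0.585 and 0.811 RPKM in 67NR. Krt5 and Krt14 stayed at 0.455 RPKM or less in every library. The epithelial adhesion genes Epcam and Cdh1 stood at 2.52 to 22.7 RPKM in 4T1.2 and 4T1 and at 0.0351 RPKM or less in 66cl4 and 67NR. The mesenchymal cadherin Cdh2 showed the opposite pattern, with 1 count or less in each 4T1.2 and 4T1 library and 17.5 to 21.4 RPKM in the others. Vim was high throughout but ran opposite to Cdh2, at 2588 to 3768 RPKM in 4T1.2 and 4T1 and 1033 to 1931 in 66cl4 and 67NR. The mesenchymal markers Fn1, Pdgfrb, Col1a1 and Col1a2 were higher in 66cl4 and 67NR. Pdgfra did not follow Cdh2, at 23.0 and 25.1 RPKM in 4T1.2 and 12.5 and 13.2 RPKM in 67NR.

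Integrins are cell surface receptors made of an α and a β chain, and the pairing decides which ligand is bound. Some pairs bind collagens, some bind laminins, some recognise the RGD motif of fibronectin, vitronectin, osteopontin and nephronectin, and those built on the Itgb2 chain, together with a few others, belong to leucocytes. Laminins are cross-shaped trimers of an α, a β and a γ chain that are secreted into basement membranes, the sheets that epithelial cells rest on and that a carcinoma cell crosses to leave the mammary gland. In a hemidesmosome, the pair of Itga6 and Itgb4 ties a laminin that holds Lama3 and Lamb3 to the keratin network.

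The sequences upstream of 3 members are shown because their transcripts behaved in 3 ways: Itga2 was far higher in 4T1.2 and 4T1, Itgb5 was higher in the other lines, and Itgb1 differed little. They are the 250 bases before the RefSeq transcription start (GRCm38.p6, the same build as mm10), printed 5′ to 3′ on the gene's strand, in windows without an annotated exon. Both strands were searched for the TATA box, which is spelled TATAAA here, for the GC box, spelled GGGCGG, for the AP-1 site, spelled TGANTCA, for the E-box, spelled CANNTG, and for the RUNX core, spelled TGTGGT. Capitals mark every match. The windows lie at chr13:114932101-114932350 (minus strand), chr16:33829415-33829664 (plus strand) and chr8:128685404-128685653 (plus strand).
Itga2: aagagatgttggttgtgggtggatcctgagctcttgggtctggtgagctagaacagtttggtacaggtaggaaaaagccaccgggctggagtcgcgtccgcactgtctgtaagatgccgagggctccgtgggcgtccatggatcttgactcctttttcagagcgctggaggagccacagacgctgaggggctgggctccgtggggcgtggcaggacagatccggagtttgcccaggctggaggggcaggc
Itgb5: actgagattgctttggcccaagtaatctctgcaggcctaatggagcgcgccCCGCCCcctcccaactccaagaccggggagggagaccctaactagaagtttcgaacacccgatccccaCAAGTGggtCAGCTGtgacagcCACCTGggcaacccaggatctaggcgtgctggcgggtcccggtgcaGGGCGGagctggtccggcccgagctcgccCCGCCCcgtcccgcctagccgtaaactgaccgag
Itgb1: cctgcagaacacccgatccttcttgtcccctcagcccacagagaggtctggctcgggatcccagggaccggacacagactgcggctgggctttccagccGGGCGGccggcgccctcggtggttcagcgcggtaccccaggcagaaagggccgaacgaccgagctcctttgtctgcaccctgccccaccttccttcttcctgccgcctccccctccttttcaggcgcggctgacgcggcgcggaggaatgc

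The Itgb5 window held 3 GC boxes and 3 E-boxes, the Itgb1 window held 1 GC box, and none of these letters occurred in the Itga2 window. Among the 32851 promoter windows in the table, 32.7% held a GC box, 66.2% an E-box, 14% the RUNX core, 12.4% a TATA box and 6.7% an AP-1 site. The 3 windows were richer in G and C (60.8% to 68.0%) than the median window (52.4%). An entry was found for 23 of the 36 members.

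The lines were compared with edgeR's quasi-likelihood test, and a gene is called where its Benjamini-Hochberg adjusted p, over the 13913 genes tested, lay under 0.05. Of the 36 members, 27 passed the filter on low counts, and the counts below are over these 27. Between the mean of 4T1 and 4T1.2 and the mean of 66cl4 and 67NR, 24 of the 27 were called, against 76.7% of all genes tested, with 15 higher and 9 lower in 4T1/4T1.2. The shares of all genes called were 38.1% higher and 38.6% lower. With a fold of at least 2 as well, 18 of the 27 were called (66.7%), against 31.9% of all genes. The median size of the log2 fold change was 1.31 over the 27 members and 0.58 over all genes, and the signed medians were 0.55 and -0.01. The libraries of the pairs of lines did not overlap for 15 of the 27 members (55.6%), against 55.5% of all genes. Any difference among the 4 lines was called for 26 of the 27, Itgav being the exception, against 84.7% of all genes. The levels of the 36 genes by library show 3 chains at 50.3 RPKM or more in all libraries, Itga3, Itgb1 and Lamb1, and several chains that were present in some lines and nearly absent in others. In bulk RNA, fewer expressing cells and less RNA per cell cannot be told apart.

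**Figure D1:**
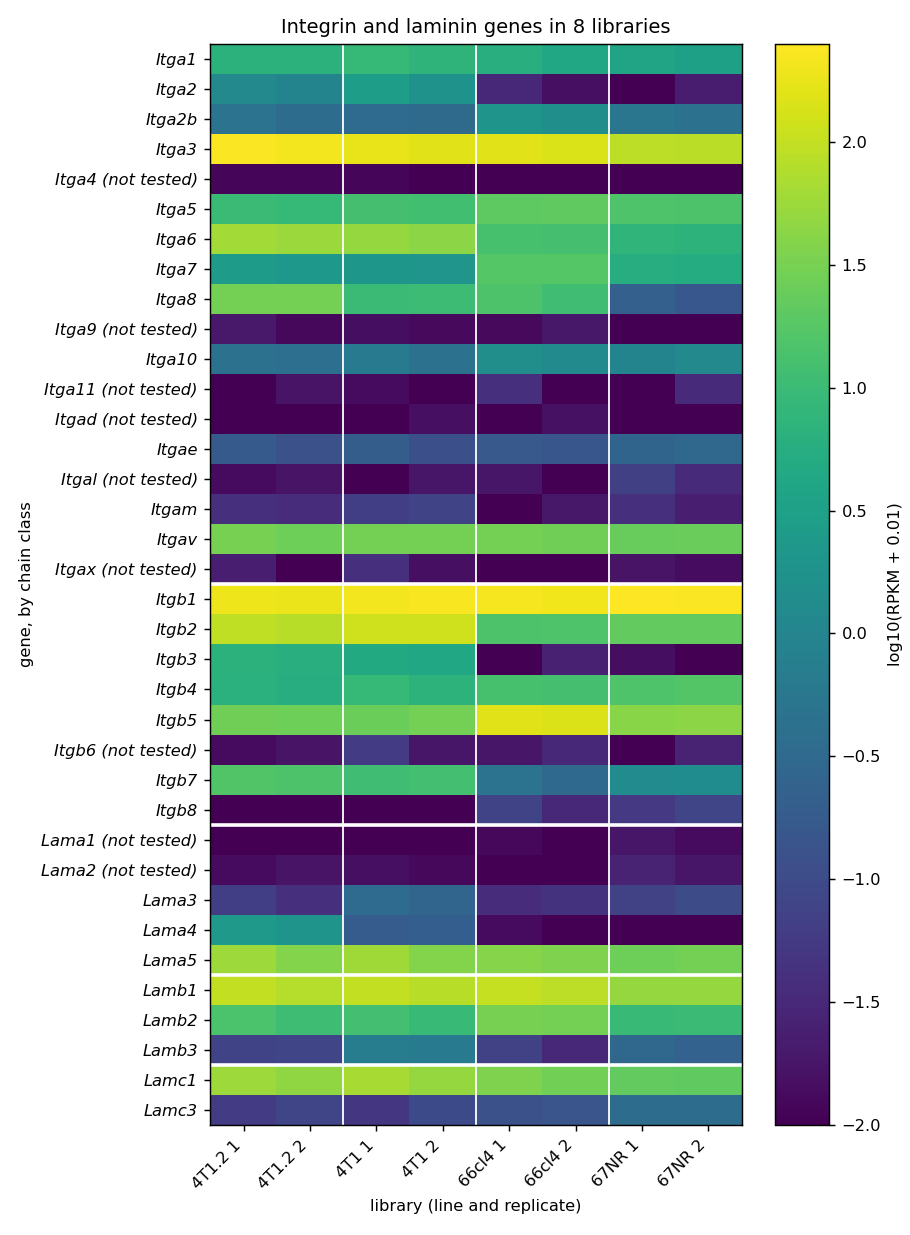
Level of each of the 36 genes (rows, grouped as integrin α, integrin β and laminin α, β and γ chains) in each of the 8 libraries (columns), as log10 of RPKM plus 0.01. Itgb3, Itga2 and Lama4 are dark in 66cl4 and 67NR, Itga8 is dark in 67NR, and 9 genes marked as not tested are dark throughout.

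**Figure D2:**
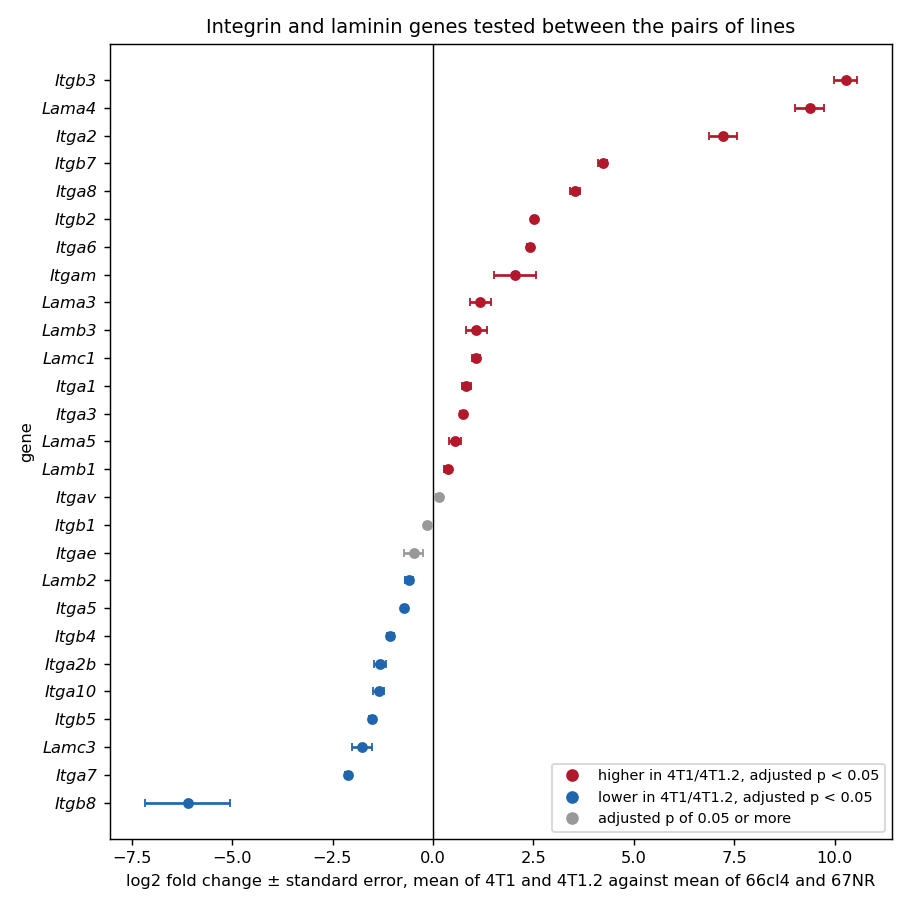
Fitted log2 fold change (point) with its standard error (bar) of the 27 members tested, as 4T1/4T1.2 minus 66cl4/67NR with each side averaged over its lines, coloured by call. The changes run from Itgb8 at the bottom to Itgb3 at the top, and those of Itgb3, Lama4, Itga2 and Itgb8 rest on 8 counts or fewer on the lower side.

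Itgb3, the β chain that joins Itgav to form the vitronectin and osteopontin receptor of osteoclasts and angiogenic endothelium, was present in 4T1.2 and 4T1 and nearly absent from the other lines. The 4T1.2 libraries held 2189 and 1891 counts of it and those of 4T1 1635 and 1100. The 66cl4 libraries held 0 and 4 counts and the 67NR libraries 1 and 0. This gave 4.11 to 6.67 RPKM in 4T1.2 and 4T1, without overlap with the other libraries. Relative to effective library size, the level was 1163 times higher in 4T1/4T1.2 (95% exact counting interval 498 to 3582, edgeR adjusted p = 4.66e-10), an interval that covers counting error only. Its partner Itgav stood at 24.0 to 31.4 RPKM in all 8 libraries (log2 fold change 0.16 ± its standard error of 0.07, edgeR adjusted p = 0.0598). Thus both chains of this receptor exceeded 1 RPKM in 4T1.2 and 4T1 and in neither of the other lines. Itga2b, the platelet chain that also pairs with Itgb3, was low and highest in 66cl4, at 1.88 and 1.57 RPKM there against 0.320 to 0.524 RPKM elsewhere. Its pooled log2 fold change was -1.31 ± 0.15 (edgeR adjusted p = 1.94e-05). Against 67NR, 4T1.2 was not called (-0.25 ± 0.21, edgeR adjusted p = 0.321) and 4T1 was called narrowly (-0.55 ± 0.22, edgeR adjusted p = 0.0460).

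Of the other β chains that join Itgav, Itgb1 was abundant and differed little, Itgb5 ran the opposite way, and Itgb8 and Itgb6 were scarce. Itgb5, a further vitronectin receptor chain, was at 27.8 and 27.1 RPKM in 4T1.2 and 26.1 and 30.6 in 4T1. It was at 40.6 and 42.7 RPKM in 67NR and 159 and 150 in 66cl4. All 4T1/4T1.2 libraries lay below all others (log2 fold change -1.52 ± 0.07, edgeR adjusted p = 2.09e-08), and 66cl4 stood above 67NR by 1.89 ± 0.10 on the log2 scale (edgeR adjusted p = 8.13e-07). Transcripts of Gm38317 hold 6.48% of the stretches of 75 bases of Itgb5. For Itgav, exons of Gm13684 on the opposite strand cover 5.9% of the exon bases. Itgb8, which with Itgav activates latent TGF-β, had 10 and 3 counts in 66cl4, 5 and 14 in 67NR and 0 in every 4T1.2 and 4T1 library. It was at least 12.5-fold lower in 4T1/4T1.2, taking the limit of 3 counts over the 4 libraries. Itgb6 had at most 16 counts in any library and was not tested.

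Itga8, which pairs with Itgb1 to bind nephronectin in the embryonic kidney, was spread over all lines but 67NR. It stood at 30.3 and 30.1 RPKM in 4T1.2, 9.87 and 10.3 in 4T1, 14.8 and 11.1 in 66cl4, with 67NR at 0.217 and 0.146. 4T1.2 exceeded 4T1 by 1.58 ± 0.15 on the log2 scale (edgeR adjusted p = 0.000101), and 66cl4 exceeded 67NR by 6.21 ± 0.20 (edgeR adjusted p = 6.12e-08). The pooled log2 fold change of 3.53 ± 0.12 therefore averages unlike lines, since the 66cl4 libraries lay above those of 4T1 and only 67NR was low. Its ligand Npnt (nephronectin) was at 58.1 to 137 RPKM in 4T1.2 and 4T1 and at 0.461 RPKM or less in 66cl4 and 67NR. In 66cl4, then, the receptor chain was present with little transcript of this ligand. On the opposite strand, exons of E030013I19Rik cover 5.0% of the Itga8 exon bases, and whether the counting used strand is not stated.

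Itga5, the fibronectin receptor chain, was lower in 4T1/4T1.2. Its levels were 10.03 and 8.90 RPKM in 4T1.2, 12.6 and 11.6 in 4T1, 20.0 and 21.1 in 66cl4, with 67NR at 15.2 and 14.8. The pairs of lines did not overlap (log2 fold change -0.71 ± 0.07, edgeR adjusted p = 5.58e-06). Its ligand Fn1 was also lower in 4T1/4T1.2, at 42.3 to 82.5 RPKM against 117 to 183.

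**Figure D3:**
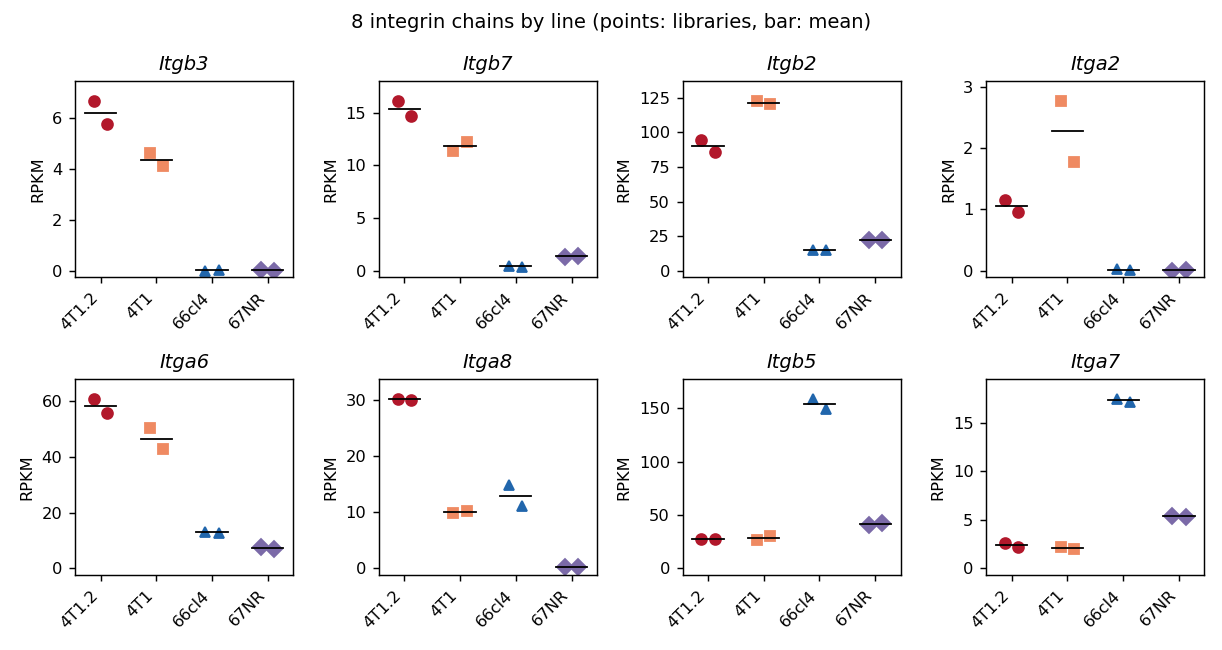
RPKM of 8 integrin chains by line, each panel with its own linear axis from 0, with a point for each library and a bar at the mean of 2 libraries. Itgb3, Itgb7, Itgb2, Itga2 and Itga6 are higher in both 4T1.2 and 4T1 than in 66cl4 or 67NR, Itga8 is high in 4T1.2 and lacking in 67NR, and Itgb5 and Itga7 peak in 66cl4.

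Among the laminin-binding chains, Itga3 and Itga6 were higher and Itga7 and Itgb4 lower in 4T1/4T1.2. Itga3 was the most abundant α chain of every library. It stood at 239 and 206 RPKM in 4T1.2, 179 and 158 in 4T1, 158 and 143 in 66cl4, with 67NR at 89.9 and 88.4. Its share of the summed RPKM of the 18 α chains was nearly the same everywhere, from 59.7% to 62.4%. The pooled log2 fold change was 0.74 ± 0.08 (edgeR adjusted p = 1.36e-05), and 4T1 and 66cl4 overlapped and were not told apart (0.16 ± 0.11, edgeR adjusted p = 0.215).

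Itga6, which pairs with either Itgb1 or Itgb4 and marks mammary basal and progenitor cells, was at 60.8 and 55.7 RPKM in 4T1.2 and 50.4 and 42.8 in 4T1. It was at 13.1 and 12.7 RPKM in 66cl4, with 67NR at 7.49 and 7.03. The difference between the pairs of lines was far larger than the spread of replicates (log2 fold change 2.43 ± 0.07, edgeR adjusted p = 1.05e-09). Itgb4, its hemidesmosomal partner, did not follow it. Itgb4 was at 5.57 to 8.74 RPKM in 4T1.2 and 4T1, 13.0 and 12.4 in 66cl4, with 67NR at 15.6 and 16.8, without overlap (log2 fold change -1.06 ± 0.09, edgeR adjusted p = 2.10e-06). Exons of B230344G16Rik on the opposite strand cover 7.7% of its exon bases.

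Itga7, the laminin receptor chain of muscle, peaked in 66cl4 at 17.5 and 17.2 RPKM. It was at 5.41 and 5.33 RPKM in 67NR and at 1.99 to 2.60 in the other libraries. The pooled log2 fold change was -2.11 ± 0.08 (edgeR adjusted p = 3.79e-09), and 66cl4 exceeded 67NR by 1.69 ± 0.11 on the log2 scale (edgeR adjusted p = 2.32e-06). In 66cl4 its share of the α chains was 6.65% and 7.18%, above the 4.99% and 5.29% of Itga6, whereas in 4T1 Itga6 held 17.0% and 16.2% and Itga7 0.726% and 0.754%.

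The collagen-binding chains were divided. Itga2, the collagen receptor chain of epithelia and platelets, had 277 and 227 counts in 4T1.2 and 710 and 347 in 4T1, against 4 and 1 in 66cl4, with 67NR at 0 and 3. Relative to effective library size, it was 166 times higher in 4T1/4T1.2 (95% exact counting interval 84.3 to 386, edgeR adjusted p = 3.55e-08). It exceeded 2 RPKM only in the first 4T1 library, at 2.76, and the second 4T1 library was at 1.78 RPKM. Itga1, which prefers basement membrane collagen, was at 3.19 to 5.81 RPKM in 66cl4 and 67NR and 6.68 to 8.95 in 4T1.2 and 4T1 (log2 fold change 0.84 ± 0.11, edgeR adjusted p = 7.64e-05). Itga10, known from cartilage, was lower in 4T1/4T1.2, at 0.399 to 0.624 RPKM against 0.969 to 1.46 (log2 fold change -1.35 ± 0.14, edgeR adjusted p = 1.09e-05). Gm42957 overlaps 33.5% of its exon bases on the same strand, and its value may hold reads of that gene. Itga11 had at most 7 counts in a library and was not tested.

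Itgb1, the common partner of most α chains, was the most abundant β chain in every library. It stood at 195 and 188 RPKM in 4T1.2, 211 and 226 in 4T1, 218 and 200.1 in 66cl4, with 67NR at 251 and 235. The pooled difference did not pass the test (log2 fold change -0.14 ± 0.07, edgeR adjusted p = 0.0835). Its share of the summed RPKM of the 8 β chains was 73.9% and 75.8% in 67NR and 53.0% to 57.5% elsewhere. The remainder was made up mainly by Itgb2 in 4T1.2 and 4T1 (26.2% to 31.9%) and by Itgb5 in 66cl4 (39.2% and 39.6%).

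Itgb2 and Itgb7 are β chains known from leucocytes, and both were higher in 4T1/4T1.2. Itgb2 was at 94.3 and 85.6 RPKM in 4T1.2, 123 and 121 in 4T1, 15.0 and 15.1 in 66cl4, with 67NR at 22.3 and 21.8. The pooled log2 fold change was 2.52 ± 0.06 (edgeR adjusted p = 2.09e-10), and 4T1.2 was lower than 4T1 by 0.43 ± 0.08 on the log2 scale (edgeR adjusted p = 0.00536). Its leucocyte partners Itgal, Itgam, Itgax and Itgad were at 0.0692 RPKM or less in every library. Itgb7, which in lymphocytes pairs with Itga4 for gut homing or with Itgae for binding E-cadherin, was at 16.1 and 14.7 RPKM in 4T1.2, 11.4 and 12.2 in 4T1, 0.463 and 0.309 in 66cl4, with 67NR at 1.33 and 1.35. Its pooled log2 fold change was 4.23 ± 0.11 (edgeR adjusted p = 3.67e-10). Both β chains were thus abundant in lines with little transcript of the α chains they are known to join.

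Markers of leucocytes did not accompany these β chains. Of 12 leucocyte markers, 11 stayed under 1 CPM (counts scaled for depth alone) in every library, and Cd3e, Adgre1 and Tyrobp had no count in any. Ptprc, the pan-leucocyte phosphatase, had 2 counts or fewer in each library. The summed level of the list was 0.300 to 0.672 CPM in 4T1.2 and 4T1 and 18.6 to 23.9 in 66cl4 and 67NR, where Lyz2, a lysozyme of myeloid cells, made up nearly all of it at 16.7 to 21.5 RPKM. The 6 platelet and megakaryocyte markers summed to 2.20 to 3.73 CPM in all libraries, but not all were level. Pf4 had 12 and 20 counts in 4T1.2 and 42 and 44 in 4T1, against at most 1 in the other libraries, and Gp9 had 62 and 59 counts in 4T1 against 2 to 14 elsewhere. The 6 endothelial markers summed to 9.45 and 9.77 in 4T1, 1.55 and 1.71 in 4T1.2 and 0.335 to 0.464 in the others, and any part of platelet or endothelial transcripts in the levels of Itgb3 or Itga2 was not tested.

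The remaining leucocyte chains were scarce. Itgae was at 0.109 to 0.294 RPKM, and the pooled difference did not pass the test (log2 fold change -0.48 ± 0.23, edgeR adjusted p = 0.0759). Itgam was called higher in 4T1/4T1.2 (log2 fold change 2.04 ± 0.52, edgeR adjusted p = 0.00509) on 7 to 16 counts against 0 to 5, and transcripts of Gm49368 hold 65.2% of its stretches of 75 bases, so its counts are uncertain. Without replicate 2 of 66cl4 the value was 3.72. Scaled for depth, the pairs of lines overlapped, with 0.1236 CPM in replicate 2 of 4T1.2 and 0.1365 CPM in replicate 1 of 67NR. Against 67NR, Itgam was not called in 4T1.2 (log2 fold change 0.51 ± 0.64, edgeR adjusted p = 0.501). Itga4, Itgad, Itgal and Itgax had at most 11 counts in a library, Itga9, a tenascin receptor chain, at most 4, and none was tested.

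The laminin α chains differed in kind between the lines. Lama5, of the widely distributed epithelial and vascular laminins, was dominant everywhere, at 95.1% to 99.9% of the summed RPKM of the 5 α chains. It was at 56.9 and 38.0 RPKM in 4T1.2, 58.3 and 38.2 in 4T1, 40.1 and 34.8 in 66cl4, with 67NR at 26.8 and 30.4. The pooled log2 fold change was 0.55 ± 0.15 (edgeR adjusted p = 0.00861), with overlap between 4T1/4T1.2 and 66cl4.

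Lama4, of endothelial and mesenchymal laminins, was found in 4T1.2 and, at a lower level, in 4T1. It had 778 and 657 counts in 4T1.2 and 68 and 56 in 4T1. Of the other 4 libraries, the first of 66cl4 had 1 count and the rest 0. 4T1.2 exceeded 4T1 by 3.45 ± 0.20 on the log2 scale (edgeR adjusted p = 1.92e-05), the largest difference of any tested member between these lines. Against 67NR, 4T1.2 was at least 415-fold higher and 4T1 at least 37.9-fold higher, taking the limit of 3 counts over the 2 libraries. Against 66cl4, whose libraries held that 1 count, the ratios were 1139 for 4T1.2 (95% exact counting interval 204 to 45027) and 104 for 4T1 (18.3 to 4140).

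Lama3 and Lamb3, chains of the hemidesmosomal laminin, were low and highest in 4T1. Lama3 (chromosome 18) had 32 and 17 counts in 4T1.2, 209 and 125 in 4T1, 12 and 16 in 66cl4, with 67NR at 23 and 60. Lamb3 had 16 and 17 counts in 4T1.2, 173 and 114 in 4T1, 11 and 4 in 66cl4, with 67NR at 43 and 57. Both were lower in 4T1.2 than in 4T1, by 2.82 ± 0.31 for Lama3 (edgeR adjusted p = 0.000280) and by 3.18 ± 0.30 for Lamb3 (edgeR adjusted p = 0.000111) on the log2 scale. They were called higher in 4T1/4T1.2 in the pooled comparison, with log2 fold changes of 1.18 ± 0.26 (edgeR adjusted p = 0.00214) and 1.08 ± 0.26 (edgeR adjusted p = 0.00389), yet in RPKM both 4T1.2 libraries lay below those of 67NR for each chain. The pooled value for these chains therefore rests on 4T1.

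Of the hemidesmosome, the anchor that binds this laminin, Col17a1, a transmembrane collagen, and the keratin linkers Plec and Dst were lower in 4T1/4T1.2, with log2 fold changes of -1.96, -1.03 and -0.63. Cd151, the tetraspanin of laminin-binding integrins, was higher by 0.35 on the log2 scale. All 4 genes of the list were called, 1 higher and 3 lower, where 76.7% of all genes were, and the calls of Plec, Dst and Cd151 were lost in the test against a log2 fold change of 1.

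**Figure D4:**
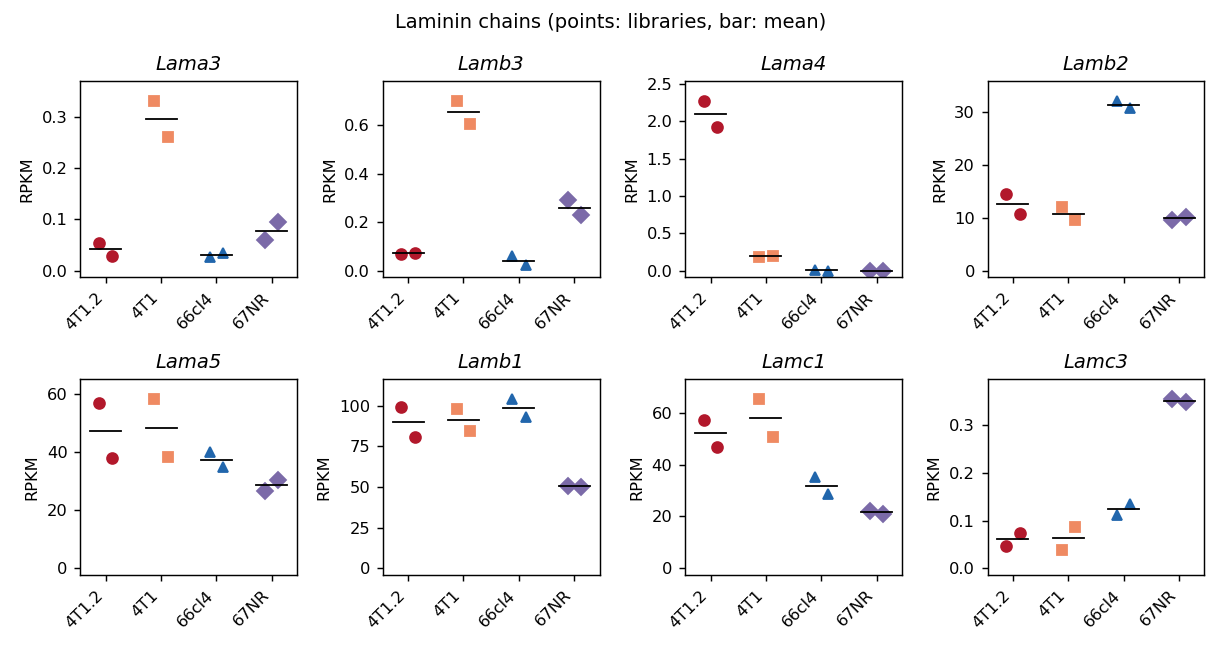
RPKM of 8 laminin chains by line, each panel with its own linear axis from 0, with a point for each library and a bar at the mean of 2 libraries. Lama3 and Lamb3 peak in 4T1, Lama4 in 4T1.2, Lamb2 in 66cl4 and Lamc3 in 67NR, while Lama5, Lamb1 and Lamc1 are high in every line.

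The shared laminin β and γ chains were abundant in all lines. Lamb1 was at 81.0 to 104 RPKM in 4T1.2, 4T1 and 66cl4 and at 50.7 and 50.3 in 67NR, and its pooled log2 fold change of 0.36 ± 0.09 (edgeR adjusted p = 0.00323) came with overlap between 66cl4 and the 4T1 lines. Lamc1, the γ chain of most laminins, fell into order without overlap between the pairs, at 46.9 to 65.3 RPKM in 4T1.2 and 4T1, 35.1 and 28.6 in 66cl4, with 67NR at 22.2 and 20.8 (log2 fold change 1.07 ± 0.11, edgeR adjusted p = 8.59e-06). Lamb2, the β chain of neuromuscular and glomerular basement membranes, was highest in 66cl4, at 31.9 and 30.6 RPKM against 9.47 to 14.5 elsewhere (pooled log2 fold change -0.60 ± 0.11, edgeR adjusted p = 0.000521), and 66cl4 exceeded 67NR by 1.67 ± 0.15 on the log2 scale (edgeR adjusted p = 2.38e-05). Lamc3 was low, at 0.0387 to 0.354 RPKM, and highest in 67NR (pooled log2 fold change -1.77 ± 0.26, edgeR adjusted p = 0.000126). Exons of Gm13441 on the opposite strand cover 6.3% of the Lamc3 exon bases. Lama1 and Lama2, of embryonic and of muscle basement membranes, had at most 3 and 6 counts in a library and were not tested.

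Pairing of chains was described from levels alone, as receptors or trimers whose chains all stood at 1 RPKM or more in both libraries of a line. Of 24 integrin pairs listed, this held for 11 in 4T1, 10 each in 4T1.2 and 66cl4, and 8 in 67NR. The same 8 pairs met it in all 4 lines, namely Itgb1 with Itga1, Itga3, Itga5, Itga6, Itga7 or Itgav, Itgav with Itgb5, and Itga6 with Itgb4. Itgav with Itgb3 met it in 4T1.2 and 4T1, Itga8 with Itgb1 in all but 67NR, Itga2 with Itgb1 in 4T1 and Itga10 with Itgb1 in 66cl4. Itga2 and Itga10 lie close to the threshold in further lines, since 1 library alone missed it, at 0.95 RPKM for Itga2 in 4T1.2 and 0.969 RPKM for Itga10 in 67NR. No pair with Itgb2 or Itgb7 met it in any line. Of 13 laminin trimers listed, those of Lama5 and Lamc1 with Lamb1 or Lamb2 met it in all lines, and those of Lama4 and Lamc1 with Lamb1 or Lamb2 only in 4T1.2. Transcript levels do not show that a protein pair forms.

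Within the highly metastatic pair, 9 of the 27 members were called between 4T1.2 and 4T1, against 19.3% of all genes. The 4 higher in 4T1.2 were Lama4, Itga8, Itga3 and Itga6, where 9.37% of all genes were higher. The 5 lower were Lamb3, Lama3, Itga2, Itgb2 and Itga5, where 9.9% of all genes were lower. With a fold of at least 2, there were 5 (18.5%), namely Lama4, Itga8, Lamb3, Lama3 and Itga2, against 6.45% of all genes. Itga2 was lower by 1.11 ± 0.25 on the log2 scale (edgeR adjusted p = 0.0127), and the call was lost without replicate 2 of 4T1.2 or replicate 1 of 4T1. The small changes of Itga3 (0.40 ± 0.11, edgeR adjusted p = 0.0311), Itga6 (0.32 ± 0.10, edgeR adjusted p = 0.0493) and Itga5 (-0.35 ± 0.09, edgeR adjusted p = 0.0271) were each lost without either 67NR library and without at least 2 other single libraries. Itgb2 lost its call without replicate 2 of 4T1.2. For Itgb3, Itgb7 and Itgb4 the log2 fold changes of 0.51 ± 0.18, 0.38 ± 0.13 and -0.38 ± 0.12 did not pass the test (edgeR adjusted p = 0.0740, 0.0628 and 0.0591), though they did so in 5, 4 and 3 of the alternatives, DESeq2 among them for each.

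Between 66cl4 and 67NR, 18 of the 27 members were called, against 44.6% of all genes. In 66cl4, 11 were higher and 7 lower, where 22.3% and 22.4% of all genes were. With a fold of at least 2 there were 9 (33.3%), against 14.7% of all genes. Itga8, Itgb5, Itga2b, Itga7 and Lamb2 were higher in 66cl4, and Lamb3, Itgb7, Lamc3 and Lama3 lower. Itgb7 was lower by 1.79 ± 0.18 on the log2 scale (edgeR adjusted p = 4.75e-05) and Lamb3 by 2.61 ± 0.39 (edgeR adjusted p = 0.000475). Itga2b was higher by 1.83 ± 0.20 (edgeR adjusted p = 6.14e-05). The calls of Itgae, Itgb4, Itga1, Lama3 and Lamc1 between these lines were lost without 1 or more of the 4 libraries.

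**Figure D5:**
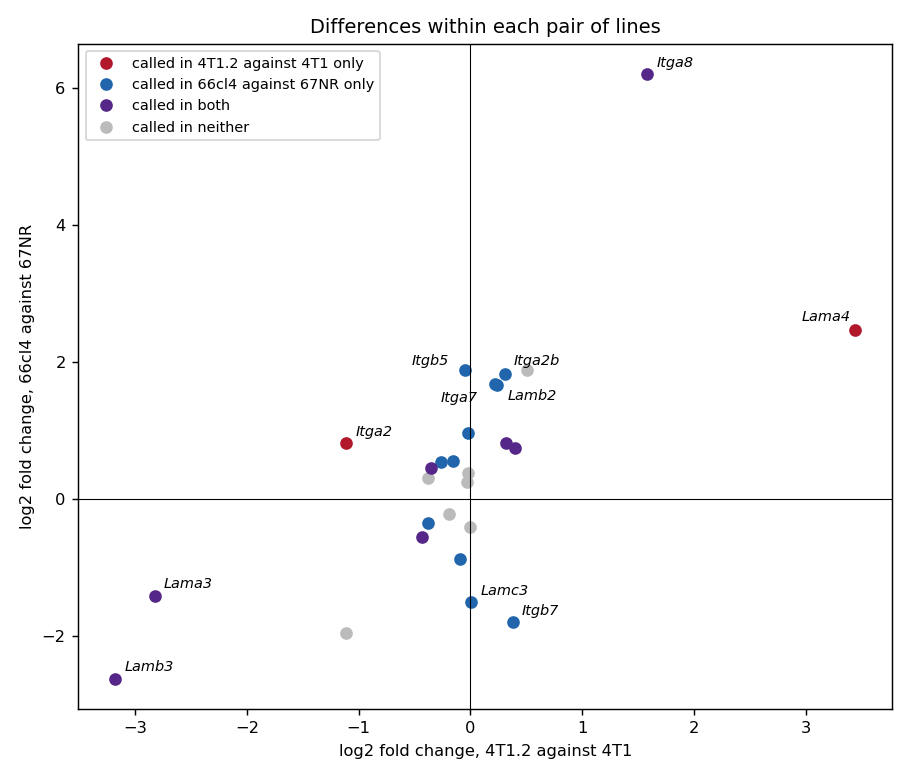
Fitted log2 fold change of the 27 members tested in 4T1.2 against 4T1 (horizontal) and in 66cl4 against 67NR (vertical), coloured by where the member was called. Itga8 lies high in both comparisons, Lamb3 and Lama3 low in both, Lama4 at the right, and most other points lie near 0 on the horizontal axis and spread along the vertical one.

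The 4 remaining comparisons of single lines share libraries with these and with each other, and their counts are given side by side. Against 66cl4, 20 members were called for 4T1.2 and 21 for 4T1, where 68.8% and 70% of all genes were called. Against 67NR, 24 members were called for 4T1.2 and 25 for 4T1, where 67.8% and 68.2% of all genes were called. Itga1, Itga2, Itga6, Itgb2, Itgb3, Itgb7, Lama4 and Lamc1 were called higher, and Itga5, Itga7, Itga10, Itgb4, Itgb5, Itgb8 and Lamc3 lower, in each of these 4 comparisons. Some of these calls rested on single libraries. Those of Lamc3 against 66cl4 were lost without any 1 of the 66cl4 or 67NR libraries, without replicate 1 of 4T1.2 or of 4T1 in the comparison with that line, and in DESeq2. Those of Itgb8 against 66cl4 were lost without replicate 1 of 66cl4. The call of Itga1 in 4T1.2 against 66cl4 was lost without either 4T1.2 library or replicate 2 of 66cl4, and that of Itga5 in 4T1 against 67NR without either 67NR library or replicate 2 of 4T1.

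Other genes of integrin adhesion were taken from 5 lists. Of 32 adaptors and activators at the cytoplasmic tail, 11 were higher, 14 lower and 7 not called in 4T1/4T1.2, a share called near the 76.7% of all genes. Abundant members changed little, as Ilk was at 114 to 164 RPKM (log2 fold change 0.20, edgeR adjusted p = 0.0186) and Tln1 at 54.9 to 88.7 (-0.19, edgeR adjusted p = 0.123). Tns4, a tensin that binds β tails, was at 27.98 to 56.8 RPKM in 4T1.2 and 4T1, 4.83 and 6.15 in 66cl4, with 67NR at 0.0632 and 0.0443. Ptk2b, a kinase related to focal adhesion kinase, was also higher (log2 fold change 2.91). Fermt1, the epithelial kindlin, had 430 and 273 counts in 4T1 and 43 and 35 in 4T1.2, against 0 or 1 in the other libraries, and so shared the 4T1 peak of Lama3 and Lamb3. Parvb, an adaptor of integrin-linked kinase, was lower in 4T1/4T1.2, at 1.90 to 4.21 RPKM against 21.9 to 28.6. Tgfb1i1 and Parvg were lower too but had at most 21 counts in a library. For Parvg only 67NR stood out, at 15 and 21 counts, against 2 in each 66cl4 library and 1 or 2 in those of 4T1.2 and 4T1.

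Of 21 listed ligands outside the laminin family, 16 were tested and all 16 called, 9 higher and 7 lower, where 76.7% of all genes were called. Besides Npnt, Edil3, an RGD protein bound by Itgav with Itgb3 or Itgb5, had 1210 to 4153 counts in each 4T1.2 and 4T1 library and at most 1 in the others. The Itgb2 ligands Icam2 and Icam1 were higher, with log2 fold changes of 7.16 and 5.16, and so was the Itga4 ligand Vcam1 (3.20). Lower were the elastic fibre protein Emilin1 (-7.11), the matricellular protein Ccn1 (-2.55) and Postn, which had 151 and 106 counts in 66cl4 and at most 3 elsewhere. Osteopontin (Spp1) was abundant throughout and lower in 4T1/4T1.2, at 362 to 573 RPKM against 1784 to 3299.

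Of 24 basement membrane partners and other laminin receptors, 22 were tested, and 9 were higher, 8 lower and 5 not called, again near the 76.7% of all genes called. Bcam, a receptor of Lama5 laminins, was at 16.9 to 24.2 RPKM in 4T1.2 and 4T1 and at 0.418 RPKM or less in the others. The nidogens, which link laminin to collagen IV, were exchanged, since Nid1 was higher (log2 fold change 5.72) and Nid2 lower (-4.38) in 4T1/4T1.2. Ntn4, a laminin-related netrin, was higher (3.70), and Smoc1 (-5.34) and Hspg2 (-1.17), the heparan sulphate proteoglycan perlecan, were lower. Of 10 tetraspanins and associated proteins, 6 were higher, 2 lower and 2 not called, beside the same 76.7%. Cd81 was at 128 to 160 RPKM in 4T1.2 and 4T1, 19.3 and 20.2 in 66cl4, with 67NR at 1.24 and 1.28, and Plaur (2.16) and Cd63 (0.89) were higher as well. Slc3a2, the heavy chain that binds β tails, and its transporter partner Slc7a5 were lower, with log2 fold changes of -1.13 and -1.15. These lists were chosen with earlier results of these data known.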

How the data were processed

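RNA-seq libraries (TruSeq RNA v2) were made from 4 mouse mammary tumour lines, 2 biological replicates each. The authors used Rsubread for alignment to mm10 and featureCounts for counting per Entrez gene, and the deposited values are raw counts without normalization. The paper describes sequencing and alignment for another data set and refers to it for these libraries, and whether the counting used strand is not given in the sources used here. The labels spell 66cl4 with a digit for its letter l.

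Genes were filtered with filterByExpr (15269 of 27179), and genes without an entry in the RefSeq gene table, predicted genes and ribosomal genes were removed, leaving 13913. These were tested with edgeR 4.0.16 (quasi-likelihood F-test, legacy fit, TMM; limma 3.58.1, R 4.3.3) on a mean per line, with all 8 libraries sharing 1 estimate of the spread (4 residual degrees of freedom) and Benjamini-Hochberg adjustment. Standard errors are the log2 fold change divided by the square root of F. Levels (RPKM) use effective library sizes and the gene lengths in the files. Ratios with exact counting intervals were computed where the lower side of a comparison held 10 counts or fewer. They are given for Itgb3, Itga2 and Lama4. Where the lower side held no count, a bound from 3 counts was computed instead. Every member is reported, in full where called with a change of at least 2-fold or abundant, and from each related list the 3 genes with the largest calls in each direction of the pooled comparison are named, with further genes (Ilk, Tln1, Fn1, Spp1, Icam1, Vcam1) chosen after their values were seen. Members and lists were chosen with earlier results of these data known. Alternatives included DESeq2 1.42.0 and limma-voom. Promoters are from RefSeq and overlaps from GENCODE, both on GRCm38. Figures used matplotlib 3.10.9. Some genes are not reported here.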

Additional observations from a re-analysis of the deposited data

How the results depend on the processing

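All 24 calls of the pooled comparison kept their direction in every alternative in which the gene was tested, and were lost only in the test against a log2 fold change of 1, which left 13 members (7 higher) and 3620 genes. That test left 4 members and 303 genes in 4T1.2 against 4T1, 7 and 1056 in 66cl4 against 67NR, 12 and 3511 in 4T1.2 against 66cl4, 13 and 3430 in 4T1.2 against 67NR and 12 members in 4T1 against 67NR, with 3404 genes there and 3684 in 4T1 against 66cl4. The comparison of 4T1.2 with 4T1 depended most on single libraries. Leaving out 1 library gave 5 to 10 members and 1372 to 3104 genes, with 5 members and 1424 genes without replicate 2 of 4T1.2 and 1372 genes without replicate 1. It gave 5 members with at least 10 counts required in every library, where fewer genes are tested, and 1726 genes from the 4 libraries alone. A threshold of 2 RPKM left 2 laminin trimers in 4T1.2. It left 9 integrin pairs each in 4T1 and 66cl4, 10 in 4T1.2 and 8 in 67NR, with 7 met in all 4 lines. A threshold of 0.5 RPKM gave 11 integrin pairs in 4T1.2 and 9 in 67NR and left the other pair and trimer counts as they were. Same-numbered replicates correlated in their deviations at 0.269 for 4T1.2 with 4T1 and at -0.123 to 0.0738 for the other pairs of lines, so the numbers were not taken to pair the libraries, and a fit with the replicate number as a block called 25 members in the pooled comparison (16 higher, 9 lower), 10 in 4T1.2 against 4T1 (Itgb4 gained) and 19 in 66cl4 against 67NR. Itgav passed the pooled threshold in 6 alternatives and Itgae in 2. Calls near the threshold in other comparisons, such as Itga2b in 4T1 against 67NR, Itga8 in 4T1 against 66cl4 and Lama3 in 4T1.2 against 67NR, were lost in 9, 9 and 7 alternatives, and the cause was not tested. Depth limits Itgb8, Itgam, Lama3, Lamb3 and the 9 members not tested.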
